A study of Homo sapiens with 6 samples.

Results

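The genes examined were 10 members of the Notch pathway, namely the receptors NOTCH1, NOTCH2 and NOTCH3, the ligands JAG1, JAG2 and DLL1, the target genes HES1, HES4 and HEY1, and LFNG, which encodes a glycosyltransferase that modifies Notch receptors. They were chosen by name from the gene symbols of the deposited tables, and all 10 were found among the 24462 symbols listed. RNA-seq was performed in PC3 cells, a line established from a bone metastasis of human prostate cancer. In 3 libraries the cells had received non-targeting siRNA (si-Control) and in the other 3 siRNAs directed at CITED2 (si-CITED2), each at 80 nM for 72 h. All 6 libraries shared the same cell line, medium with heat-inactivated serum and Trizol extraction. By the study's description the replicates were independent experiments, and its methods list a single siRNA sequence for CITED2, so the group rests on that siRNA. CITED2 is a transcriptional regulator that binds the histone acetyltransferases p300 and CBP.

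Notch receptors pass signals between neighbouring cells. A ligand of the Jagged or Delta family on the sending cell binds the receptor, after which ADAM proteases and then γ-secretase cut the receptor and release its intracellular domain. That domain enters the nucleus, joins the DNA-binding protein RBPJ and a Mastermind protein, recruits p300 or CBP, and switches on genes such as those of the HES and HEY families, which encode basic helix-loop-helix repressors. In prostate epithelium the pathway takes part in gland development, and Jagged-Notch signaling has been studied in prostate cancer progression.

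The total count ranged from 19508925 to 28936374 reads per library. In the libraries labelled si-CITED2, the CITED2 mRNA was not lower than in si-Control. After TMM normalization, which rescales each library to a common effective size, CITED2 stood at 859, 892 and 773 counts in the si-Control libraries and at 1084, 921 and 984 in those labelled si-CITED2. The groups did not overlap, and the log2 fold change was 0.24 with a standard error of 0.07 (adjusted p = 0.0363, quasi-likelihood test of edgeR). The mRNA thus went against the label, and every direction below refers to the libraries as labelled. The study checked the knockdown at the protein level by immunoblot, which is not analysed here. The call was lost without si-Control replicate 1 (adjusted p = 0.0536) or replicate 3 (adjusted p = 0.141), and without si-CITED2 replicate 1 (adjusted p = 0.154) or replicate 3 (adjusted p = 0.0846). The epithelial markers EPCAM, KRT8, KRT18 and CDH1 summed to between 34597 and 40988 normalized counts per library, and the luminal prostate genes KLK2 and KLK3 had 0 and 2 counts in all. Several marker sums were apart between the groups. The epithelial sum was 34597 to 36502 in si-Control and 37732 to 40988 in the libraries labelled si-CITED2, but its members moved in opposite directions. The keratins KRT8 and KRT18 rose (log2 fold changes 0.24 and 0.18, adjusted p = 0.00260 and 0.0267, edgeR), whereas the adhesion genes CDH1 and EPCAM fell (log2 fold changes -0.52 and -0.33, adjusted p = 1.7e-05 and 0.00110, edgeR). The sum of VIM and CD44 was 33761 to 35509 against 43323 to 45040, and that of the 4 luminal genes was 244 to 272 against 323 to 419. The ranges of the 4 fibroblast genes (2.67 to 9.41 against 7.64 to 36.4, with DCN at 1 count in all) overlapped, as did those of the leukocyte (12.1 to 18.5 over all libraries) and endothelial genes (12.4 to 22.5). Within these sums, PDGFRA rose without overlap (1, 1 and 2 against 11, 8 and 7 counts). CDH5 (7, 9 and 4 against 2, 1 and 0) and PTPRC (2, 2 and 1 against 0, 0 and 0) were lower without overlap. THY1 had 18 counts in si-CITED2 replicate 1, the library with the highest fibroblast sum. The part of these markers in the results below was not tested, and in bulk RNA fewer cells of a type and less RNA per cell cannot be told apart.

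Of the 10 genes, 8 had enough reads to enter the test, and 5 of these changed at an adjusted p under 0.05, where 17.4% of all genes tested did. LFNG, HES1 and NOTCH2 were higher in the libraries labelled si-CITED2 (9.36% of all genes were), and HES4 and JAG2 were lower (8.09% of all genes were). NOTCH1, NOTCH3 and JAG1 did not pass. DLL1 and HEY1 had too few reads to be tested. In 7 of the 8 genes the 3 values of one group all lay above those of the other, against 32.5% of all genes tested. The members were chosen with earlier results of these data known, so these shares do not test the set. The number of members higher was 1 without si-CITED2 replicate 3. The number lower was 1 when any single library was left out, other than si-CITED2 replicate 1, for which it was 2. The members that passed lay in both directions, and the median log2 fold change of the 8 was -0.11 beside -0.0014 for all genes tested. Each value for the 10 genes is plotted by library.

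**Figure D1:**
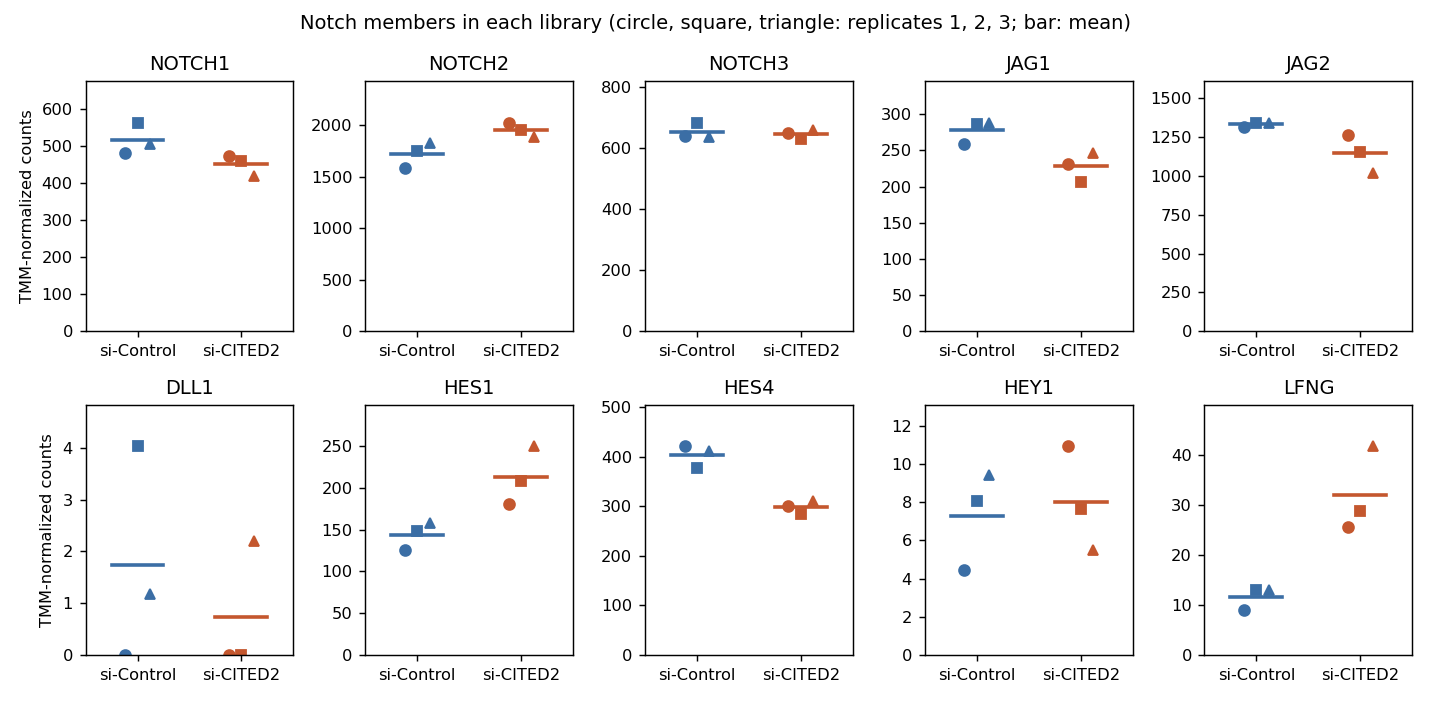
TMM-normalized counts (vertical axis, from 0) of the 10 Notch genes in the 3 si-Control libraries (blue) and the 3 libraries labelled si-CITED2 (orange), with the mean of each group as a bar. The groups are apart in all tested genes but NOTCH3, with LFNG and HES1 higher and HES4 lower in the libraries labelled si-CITED2, while DLL1 and HEY1 stay at 10.9 normalized counts or less.

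Levels of different genes were compared per length, as RPKM, which divides the reads of a gene by the length of its longest coding transcript and by the library's effective size. Among si-Control libraries HES4 had the highest level of the 10, at 16.5 ± 0.966 RPKM (SD, n = 3). It was followed by JAG2 at 9.69 ± 0.116, NOTCH2 at 6.41 ± 0.464 and HES1 at 3.87 ± 0.434 RPKM. NOTCH3 stood at 3.21 ± 0.127, NOTCH1 at 2.35 ± 0.192 and JAG1 at 1.99 ± 0.119 RPKM. The ranges of these 7 genes did not overlap between neighbours in the order, although those of HES1 (lowest 3.40) and NOTCH3 (highest 3.35) nearly touched. LFNG at 0.207 ± 0.0415 and HEY1 at 0.135 ± 0.0475 RPKM overlapped, and DLL1 lay at 0.0232 ± 0.0277 RPKM. In the libraries labelled si-CITED2 the order was the same, but JAG2 (7.42 to 9.21 RPKM) and NOTCH2 (7.01 to 7.54 RPKM) overlapped. This order holds for the longest coding transcripts only. Annotated coding transcripts ranged from 559 to 8666 bases for NOTCH3 and from 597 to 5940 for JAG1. For NOTCH2 they ranged from 2954 to 11389 bases and for HES4 from 667 to 1040. With the shortest transcripts NOTCH3 would stand above NOTCH2 and HES4, so HES4 would no longer be highest, and JAG1 would stand above JAG2.

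To show what lies upstream of the HES genes, the stretch of each promoter with the core letters bound by RBPJ is printed. These are 80 bases of the RefSeq promoter windows (GRCh38.p14), ending 60 bases before the annotated start, read on the strand of the gene, with TGGGAA in capitals. HES1 lies on chromosome 3, at chr3:194136008-194136087 on the plus strand, and HES4 on chromosome 1, at chr1:1000158-1000237 on the minus strand.
HES1: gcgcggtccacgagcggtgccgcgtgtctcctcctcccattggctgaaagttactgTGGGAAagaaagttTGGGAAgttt
HES4: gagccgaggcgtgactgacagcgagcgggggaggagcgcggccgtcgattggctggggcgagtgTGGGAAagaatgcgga

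The HES1 stretch holds TGGGAA in 2 copies that start 14 bases apart, and the HES4 stretch holds 1 copy. The longest run shared by the stretches is the 12 bases tgTGGGAAagaa, which surrounds the copy farther from the start in HES1 and the only copy in HES4. Searched on both strands over the 250 bases before each start, TGGGAA was present in 20.8% of all 35116 promoter windows. Among the 8 members with a window in the table it was found in 3, namely HES1, HES4 and the second of the LFNG windows. LFNG had 2 windows, so counts of members are per gene, whereas the shares of all windows are per window. GC content was 57.2% to 81.6% in the member windows, beside a median of 58% over all windows. No window was matched for DLL1 or HEY1. The N-box CACNAG, which HES proteins can bind, was present 3 times in the HES1 window and not in the HES4 window, beside 32.0% of all windows with at least 1. Among the members, NOTCH3 and LFNG held it as well. The letters CAGAC, to which SMAD proteins can bind, were found in windows of HES1 and LFNG, and in 38.0% of all windows. The E-box CACGTG was in no member window and in 6.34% of all windows. The HES1 copies of CACNAG and TGGGAA do not overlap each other. In GENCODE 29 a HES4 transcript also starts inside the HES4 copy of TGGGAA. These matches describe the letters and not occupancy, and TGGGAA was held by HES1 and LFNG, which rose, and by HES4, which fell.

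HES1 and HES4 encode related repressors that are activated by Notch, and they changed in opposite directions. HES1 was at 126, 148 and 158 normalized counts in si-Control and at 181, 208 and 250 in the libraries labelled si-CITED2. Every value of the latter group lay above the former, and replicate 3 was the highest. HES1 rose by a log2 fold change of 0.57 with a standard error of 0.14, or 1.49-fold (adjusted p = 0.00946, edgeR). Without si-CITED2 replicate 3 the log2 fold change of HES1 was 0.45 and no longer passed (adjusted p = 0.0629). HES4 was at 421, 377 and 413 normalized counts in si-Control and at 300, 286 and 311 in the libraries labelled si-CITED2. The groups were well apart, with the lowest si-Control value above the highest of the other group. HES4 fell by 0.43 on the log2 scale with a standard error of 0.09, so that its level was 1.35-fold lower (adjusted p = 0.00296, edgeR).

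The opposite movement was also read as a ratio within each library, which does not depend on how libraries are scaled to each other. The log2 ratio of HES1 over HES4 counts was -1.74, -1.34 and -1.39 in si-Control and -0.73, -0.45 and -0.32 in the libraries labelled si-CITED2. The mean ratio was 0.99 higher on the log2 scale in the latter, and the groups did not overlap (two-sided exact permutation test, p = 0.1, the smallest that 3 libraries against 3 allow). Of 6 such ratios, adjusted together by the Benjamini-Hochberg method, none could pass, and the adjusted value here was 0.2 (exact permutation test).

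HEY1 encodes a related repressor of the HEY family. It was counted 5, 10 and 8 times in si-Control and 9, 8 and 5 times in the libraries labelled si-CITED2. At this depth a difference was not detectable. A fit without a filter on low counts gave a log2 fold change of 0.14, with a 95% interval from -1.01 to 1.29. The log2 ratio of HEY1 over HES1 ranged from -4.70 to -3.98 in si-Control and from -5.38 to -3.98 in the libraries labelled si-CITED2, so the groups overlapped (exact permutation test, p = 0.7).

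LFNG had the largest change of the members. Its enzyme, a Fringe glycosyltransferase, extends the O-fucose on Notch receptors, which favours activation by Delta over Jagged ligands. LFNG was counted 10, 16 and 11 times in si-Control and 21, 30 and 38 times in the libraries labelled si-CITED2, or 8.89, 12.9 and 12.9 against 25.5, 28.7 and 41.6 normalized counts. All values of the latter group lay above the former, and replicate 3 stood highest. LFNG rose by a log2 fold change of 1.46 with a standard error of 0.33, or 2.76-fold (adjusted p = 0.00505, edgeR). Of all genes tested, 99.1% had a smaller absolute log2 fold change. The level remained low, at 0.57 ± 0.153 RPKM (SD, n = 3) in the libraries labelled si-CITED2.

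Among the receptors the changes were small. NOTCH2 was at 1582, 1747 and 1826 normalized counts in si-Control and at 2022, 1947 and 1880 in the libraries labelled si-CITED2. The groups did not overlap, and si-Control replicate 1 was the lowest of the 6 libraries. NOTCH2 rose by a log2 fold change of 0.18 with a standard error of 0.06, or 1.14-fold (adjusted p = 0.0478, edgeR). The call was close to the threshold and was lost without si-Control replicate 1 (adjusted p = 0.146) or 2 (adjusted p = 0.0960), and without si-CITED2 replicate 1 (adjusted p = 0.140), 2 (adjusted p = 0.131) or 3 (adjusted p = 0.0676). NOTCH2 also has a partial, nearly identical copy, NOTCH2NL, which had 17156 counts over the 6 libraries beside 10921 for NOTCH2, and how shared reads were divided is not known. NOTCH2NL itself showed a log2 fold change of 0.16 (adjusted p = 0.306, edgeR), and with the counts of both genes added NOTCH2 did not pass (log2 fold change 0.17, adjusted p = 0.148).

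NOTCH1 was at 480, 562 and 505 normalized counts in si-Control and at 471, 460 and 419 in the libraries labelled si-CITED2. The groups did not overlap, but the difference did not pass over all genes (log2 fold change -0.20, 95% interval -0.38 to -0.02, adjusted p = 0.132, edgeR). Without si-Control replicate 2 the log2 fold change of NOTCH1 was -0.13. NOTCH3 was at 640, 684 and 639 normalized counts in si-Control and at 652, 632 and 662 in the libraries labelled si-CITED2. Here the groups overlapped, and the log2 fold change of -0.02 had a 95% interval from -0.16 to 0.13 (adjusted p = 0.915, edgeR).

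The balance between receptors was again read within libraries. The log2 ratio of NOTCH2 over NOTCH1 was 1.72, 1.64 and 1.85 in si-Control and 2.10, 2.08 and 2.17 in the libraries labelled si-CITED2. These groups did not overlap, and the mean was 0.38 higher on the log2 scale (exact permutation test, p = 0.1). The log2 ratio of NOTCH3 over NOTCH1 was 0.18 higher, without overlap (exact permutation test, p = 0.1), and 0.12 higher without si-CITED2 replicate 3. That of NOTCH3 over NOTCH2 was lower by 0.20 on average, with overlap (exact permutation test, p = 0.2). NOTCH2 counts thus made up more relative to NOTCH1 in each library labelled si-CITED2 than in any si-Control library, within the limit that NOTCH2NL sets.

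**Figure D2:**
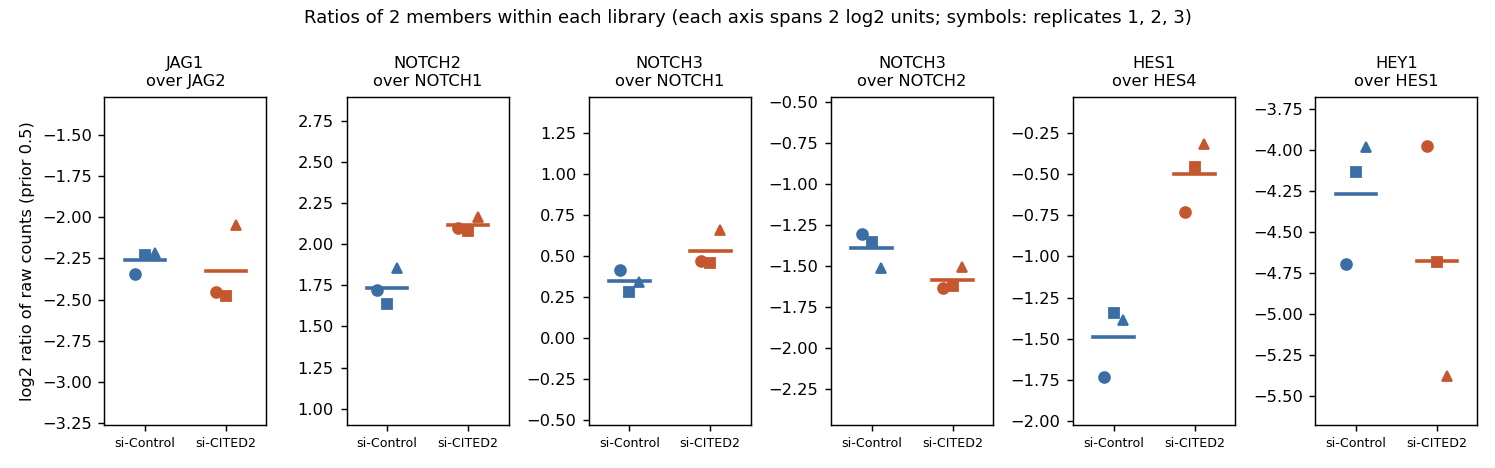
Log2 ratio of the raw counts of 2 members in each library (vertical axis, 2 log2 units in each panel) for the 3 si-Control (blue) and the 3 libraries labelled si-CITED2 (orange), with group means as bars. HES1 over HES4 shows the widest separation, 0.99 on the log2 scale, whereas JAG1 over JAG2, NOTCH3 over NOTCH2 and HEY1 over HES1 overlap.

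Of the Jagged ligands, which are transmembrane proteins of the sending cell, JAG2 passed the test and JAG1 did not. JAG2 was at 1314, 1342 and 1340 normalized counts in si-Control and at 1265, 1154 and 1020 in the libraries labelled si-CITED2. The si-Control values lay close together, and the other group was lower and more spread. JAG2 fell by 0.22 on the log2 scale with a standard error of 0.07, a 1.16-fold lower level (adjusted p = 0.0422, edgeR). It no longer passed without si-Control replicate 1 (adjusted p = 0.0589), 2 (adjusted p = 0.117) or 3 (adjusted p = 0.0894), or without si-CITED2 replicate 2 (adjusted p = 0.105) or 3 (log2 fold change -0.14, adjusted p = 0.244). JAG1 was at 259, 287 and 288 normalized counts in si-Control and at 231, 206 and 247 in the libraries labelled si-CITED2. Its groups did not overlap either. The log2 fold change of JAG1 was -0.29, with a 95% interval from -0.52 to -0.06 (adjusted p = 0.0811, edgeR), so it lay on the same side as JAG2 but did not pass.

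The ratio of JAG1 over JAG2 within libraries overlapped between the groups, with means of -2.26 in si-Control and -2.33 in the libraries labelled si-CITED2 on the log2 scale (exact permutation test, p = 0.8). A shift between the ligands was therefore not detectable in 3 libraries against 3. The Delta ligand DLL1 was counted 0, 5 and 1 times in si-Control and 0, 0 and 2 times in the libraries labelled si-CITED2. With 3 counts taken as the smallest detectable number, or 0.103 to 0.155 CPM, DLL1 was at or under the limit in all libraries but si-Control replicate 2. DLL1 overlaps FAM120B on the opposite strand, and whether reads were counted by strand is not given in the sources used here.

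**Figure D3:**
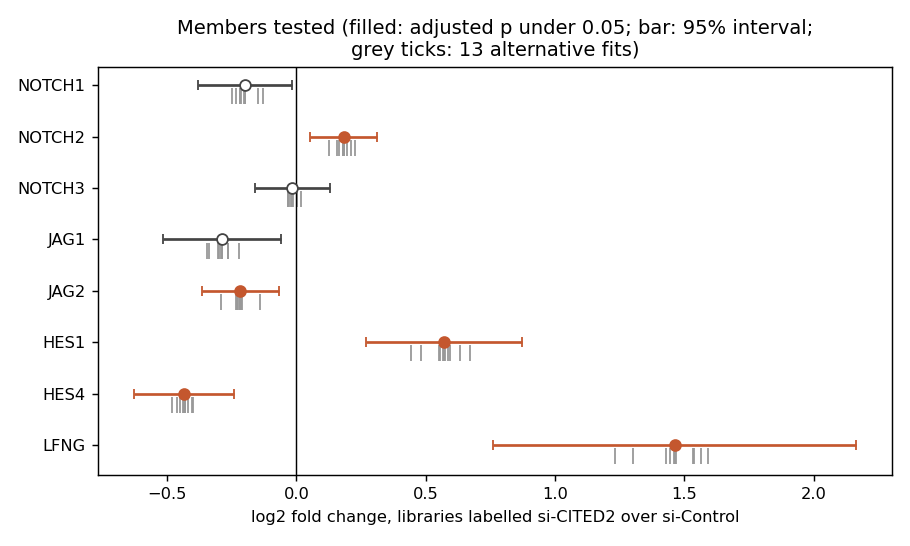
Log2 fold changes of the 8 members tested (horizontal axis, libraries labelled si-CITED2 over si-Control), with 95% intervals as bars, filled points for an adjusted p under 0.05 and grey ticks for the 13 alternative fits. LFNG lies farthest from 0, HES1 and HES4 lie on opposite sides, and NOTCH3 sits on 0.

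The other genes of the pathway were taken from a list of 59 genes ordered by role, of which 53 were tested. In this list 9 genes, or 17%, passed, close to the 17.4% of all genes. Of these, 8 were higher and 1 was lower in the libraries labelled si-CITED2, where 9.36% of all genes tested were higher and 8.09% lower. The median log2 fold change of the list was 0.0091. The genes that passed act in sending cells, in receptor cleavage, in the nuclear complex and in corepression.

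NEURL1B, a ubiquitin ligase of the Neuralized type that promotes endocytosis of Notch ligands, had the largest change in this list. It was at 289, 277 and 278 normalized counts in si-Control and at 667, 749 and 712 in the libraries labelled si-CITED2. NEURL1B rose by a log2 fold change of 1.34 with a standard error of 0.08, or 2.52-fold (adjusted p = 4.0e-09, edgeR). MIB1, another ubiquitin ligase for Notch ligands and the most counted gene of that role, had a log2 fold change of 0.05 with a 95% interval from -0.10 to 0.19 (adjusted p = 0.729, edgeR).

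Among 9 genes of receptor cleavage, 3 rose and 6 did not pass, where 9.36% of all genes tested were higher. FURIN, the convertase that cuts Notch receptors on their way to the surface, was at 2146, 2196 and 2197 normalized counts in si-Control and at 3631, 3929 and 3741 in the libraries labelled si-CITED2. Its rise was 1.73-fold (log2 fold change 0.79, adjusted p = 7.6e-09, edgeR). ADAM10, the protease that makes the ligand-dependent cut, rose by 0.30 on the log2 scale (adjusted p = 4.7e-04, edgeR), and PSENEN, a subunit of γ-secretase, by 0.24 (adjusted p = 0.0112, edgeR). PSENEN overlaps U2AF1L4 on the opposite strand, and ADAM10 overlaps the pseudogene HSP90AB4P on its own strand. FURIN and these proteases also act on many other proteins.

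The nuclear complex held 9 genes, of which 3 rose and 1 fell, beside 9.36% of all genes tested higher and 8.09% lower. RBPJ, the DNA-binding partner of Notch, was at 2058, 2117 and 2247 normalized counts in si-Control and at 2472, 2608 and 2627 in the libraries labelled si-CITED2, a log2 fold change of 0.26 (adjusted p = 0.00218, edgeR). The Mastermind genes MAML2 and MAML3 rose by log2 fold changes of 0.59 (adjusted p = 0.00821) and 0.91 (adjusted p = 0.00166, edgeR). MAML3 went from 43, 55 and 46 to 90, 94 and 88 normalized counts, and it overlaps MGST2 on the opposite strand. KAT2B, an acetyltransferase that can join the complex, fell by 0.54 (adjusted p = 5.6e-04, edgeR). EP300 and CREBBP, which encode the acetyltransferases p300 and CBP that bind both Mastermind and CITED2, had log2 fold changes of -0.07 (95% interval -0.20 to 0.06) and -0.04 (95% interval -0.16 to 0.07) and did not pass. SNW1, the most counted gene of this role, had a log2 fold change of -0.01 (adjusted p = 0.922, edgeR).

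Of 11 corepressor genes, some of which act with RBPJ when Notch is inactive, 1 rose and 10 did not pass. Over all genes tested, 9.36% were higher. SPEN, which overlaps the antisense gene FLJ37453, was at 3880, 4319 and 4378 normalized counts in si-Control and at 5065, 4745 and 4559 in the libraries labelled si-CITED2. The groups did not overlap, and SPEN rose by 0.19 on the log2 scale (adjusted p = 0.0281, edgeR). SPEN lost its call without si-Control replicate 1 (adjusted p = 0.0880) or 2 (adjusted p = 0.0503), and without si-CITED2 replicate 1 (adjusted p = 0.113) or 2 (adjusted p = 0.0821).

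In the remaining roles, with 21 genes tested, no gene passed in edgeR or in DESeq2. Of these, 4 (DLL3, DTX2, HES6 and HES7) had an unadjusted p under 0.05 in edgeR, all with a log2 fold change below 0. Such p values were common over all genes. NOTCH1 (unadjusted p = 0.0342, edgeR) stood at rank 4226 by p among the 16314 genes tested, so at least 4226 genes lay under 0.05. Among 6 tested genes of the other HES, HEY and related targets, 5 had a log2 fold change below 0 and 1 above. Over all 16314 genes tested, 8210 lay below 0. HEYL had the most counts and a log2 fold change of -0.20 (adjusted p = 0.257, edgeR). HES7 came closest to the threshold, at 204, 204 and 200 normalized counts in si-Control against 177, 163 and 141 (log2 fold change -0.34, adjusted p = 0.0709, edgeR). NRARP, a feedback inhibitor that Notch induces, had a log2 fold change of -0.17 (95% interval -0.43 to 0.08). Of the 9 genes of receptor trafficking and turnover, led by NUMB (log2 fold change 0.04, 95% interval -0.08 to 0.16), none passed in edgeR. DLL3, the most counted of the other ligands, had a log2 fold change of -0.43 (adjusted p = 0.108, edgeR), and POFUT1, which adds the O-fucose that LFNG extends, had 0.00 (95% interval -0.11 to 0.11). NOTCH4 was counted between 2 and 12 times per library and was not tested.

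**Figure D4:**
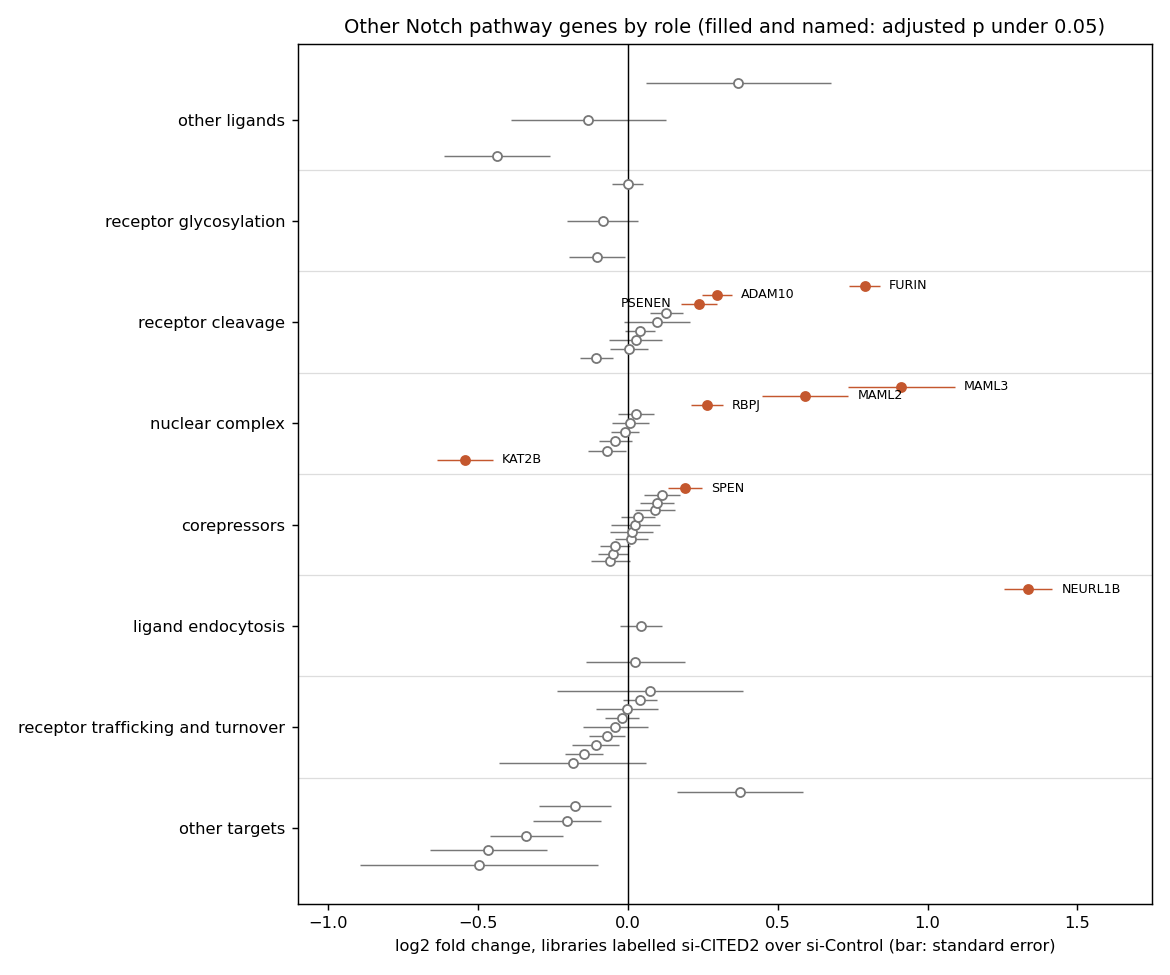
Log2 fold changes (horizontal axis, libraries labelled si-CITED2 over si-Control) with standard errors for the 53 other Notch pathway genes tested, grouped by role on the vertical axis. The 9 filled and named genes had an adjusted p under 0.05, and 8 of them lie above 0, with NEURL1B at 1.34 and KAT2B at -0.54.

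For each of the 5 members that passed, the genes with the most similar pattern were sought among 2641 called genes whose mean in the higher group was 100 normalized counts or more. Likeness was the root mean square difference in log2 CPM centred on each gene's mean, over the 6 libraries. The genes nearest to HES1 were WIPF1 (0.084), SERPINB5 (0.087) and MEX3B (0.096), and those nearest to HES4 were HMMR (0.035), COL17A1 (0.040) and MCM2 (0.040). YPEL2 (0.14), TRIB1 (0.20) and STK32A (0.21) came nearest to LFNG. NOTCH2 was closest to DOCK5 (0.019), SPEN (0.020) and DLG5 (0.025), and JAG2 to PDE9A (0.038), ARHGEF39 (0.040) and CENPN (0.041). Since likeness was measured over the same libraries that give the fold changes, a near gene has a similar fold change by construction.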

How the data were processed

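The authors deposited raw counts for each gene symbol, with a file for every library and no scaling. Per the labels, libraries were made with a SMARTER mRNA-Seq kit, and the submitters' processing notes name TopHat, edgeR and hg19. The counting program, annotation and strand setting are not given in the sources used here. Of 25737 rows, those repeating a symbol were reduced to the most counted (24462 symbols), which left out 0.0821% of counts. The members and lists were chosen with earlier results of these data known.

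The tests were run with edgeR 4.0.16 under R 4.3.3. Genes passing filterByExpr (16314) were scaled by TMM and compared by the quasi-likelihood test without a block, since the study's methods state unpaired tests. Benjamini-Hochberg adjustment covered all genes tested, with a threshold of 0.05. Standard errors are the log2 fold change over the root of the F statistic. Within-library ratios used a prior count of 0.5 and log2 CPM a prior count of 2. Within groups, no pair of libraries was as alike as reads of a single library would be (chi-square over its degrees of freedom, 2.89 or more). RPKM values were computed from these counts and GENCODE 29 (GRCh38) transcript lengths, which may differ from the annotation counted. Limits set by counts cover counting error only. The scripts were tested on simulated data. Alternatives were DESeq2 1.42.0, its size factors, library size only, other filters on low counts, the replicate block, summed rows of a symbol, other prior counts and leaving out each library. Adding NOTCH2NL to NOTCH2 was chosen after seeing the data. Genes were named by a fixed rule: the members, CITED2, other pathway genes past the threshold, the most counted gene of each role and the 3 nearest genes to each called member. NOTCH2NL, EP300, CREBBP, DTX2, HES6, HES7 and NRARP were named after their values were seen. A gene of the pathway list is not reported here and was left out of the counts of that list.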

Additional observations from a re-analysis of the deposited data

How the results depend on the processing

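Across 13 alternative fits, HES4 (log2 fold change -0.48 to -0.40) and LFNG (1.23 to 1.59) passed in all, and HES1 (0.45 to 0.67) in 12. JAG2 passed in 7 and NOTCH2 in 5. NOTCH1 and JAG1 passed in none and kept their sign, while NOTCH3 ranged from -0.033 to 0.019 without one library each and changed sign without si-Control replicate 2 (0.019) or si-CITED2 replicate 2 (0.0019). The number of members higher was 1 to 3 and the number lower 1 to 2 without one library each. Among the other pathway genes 7 to 8 were higher and 1 to 2 lower, with 2 without si-Control replicate 1 or si-CITED2 replicate 1. The cause was not tested. Deviations from the group means were not shared by libraries of equal number when read across all genes (Pearson's r from -0.038 to 0.034). Such a value cannot exclude a pairing that affects only some genes. With the replicate number as a block, 1 member was lower, since JAG2 (adjusted p = 0.0533) did not pass, and neither did NOTCH2 (adjusted p = 0.0791) or SPEN (adjusted p = 0.0550). With library size only, NOTCH2 (adjusted p = 0.0810), SPEN (adjusted p = 0.0503) and CITED2 (log2 fold change 0.22, adjusted p = 0.0518) did not pass, and in DESeq2 NOTCH2 did not (adjusted p = 0.0525). CITED2 ranged from 0.17 to 0.29 without one library each. The mean difference in the JAG1 over JAG2 ratio was -0.07, and it ranged from -0.21 to 0.012 without one library each, turning above 0 without si-CITED2 replicate 2. Depth limits HEY1, DLL1 and LFNG most, since each had at most 38 counts in a library.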
